A study of Mus musculus with 5 samples.

Results

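The genes described here encode the initiation and elongation factors of cytosolic translation and the proteins named after them. They were taken as the listed genes whose mouse symbol starts with Eif1 to Eif6, Eef1 or Eef2, leaving out 4 eIF2 kinase genes (Eif2ak1 to Eif2ak4), and 56 of the 11352 listed genes met that rule. RNA-seq was made from mouse haematopoietic stem and progenitor cells (HSPCs) sorted as Lineage-/KIT+/SCA1+/CD135- in 2 groups. The first group carried a Cux1 knockdown together with NrasG12D, an activated form of the small GTPase NRAS, and has 3 libraries, called NrasG12D below. The other carried the Cux1 knockdown without NrasG12D and has 2 libraries, called Cux1-low. CUX1 is a homeodomain transcription factor. All mice had been given pI:C, a synthetic double-stranded RNA, and doxycycline for 4 weeks. Both groups therefore share the knockdown and both agents, and neither cells with an intact Cux1 level nor NrasG12D cells without the knockdown are among the libraries used. The labels name neither the strain, the age nor the promoters that drive the knockdown or the Nras allele, and they do not say whether the libraries of a group came from separate mice. The p-values measure the spread between these libraries, which may be technical.

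Translation starts when eIF2 carries the initiator methionyl-tRNA to the small ribosomal subunit, on which eIF1, eIF1A, eIF3 and eIF5 assemble. The eIF4 factors bind the mRNA cap and unwind the leader, the complex scans to a start codon, and eIF5B joins the large subunit. In elongation eEF1A brings each aminoacyl-tRNA, the eEF1B subunits recharge it with GTP, and eEF2 moves the ribosome along. RAS proteins are known to act on this machinery through the ERK and mTORC1 kinase pathways, whose targets include the eIF4E-binding proteins and eEF2 kinase. Haematopoietic stem cells are known for a low rate of protein synthesis compared with their dividing progeny.

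Values are normalized CPM, a gene's share of the library's reads after the authors' scaling. Library depth was 16489711 to 20262498 reads over the listed genes, and each translation factor gene had at least 61 reads in every library, so that none lay near the cutoff for being listed. NrasG12D library 3 stood apart from the other libraries of its group, and leaving it out moved the number of genes past the threshold from 128 (1.13%) to 4243 (37.4%) of 11352. Cux1 RNA had 311, 279 and 307 normalized CPM in NrasG12D libraries 1 to 3, against 306 and 281 in Cux1-low, so the groups did not differ beyond their spread, and the depth of the knockdown cannot be read without cells that lack it. Nras RNA had 126, 124 and 113 in NrasG12D, against 144 and 115 in Cux1-low, and counts per gene do not show the G12D change. The defining RNAs of the sort were present but lower in NrasG12D. Kit had 477, 569 and 816 normalized CPM in NrasG12D libraries 1 to 3, against 1359 and 1373 in Cux1-low. Ly6a, which encodes SCA1, had 24.2, 14.2 and 37.7 in NrasG12D, against 44.7 and 48.7 in Cux1-low. Flt3, the gene of the CD135 antigen that the sort selected against, had 165 to 230 in NrasG12D, against 326 and 388 in Cux1-low. Of 8 stem cell markers 7 were lower in every NrasG12D library than in either Cux1-low library, as were 27.0% of all genes. The exception, Slamf1, had a log2 fold change of 0.60. The 8 markers summed to 361, 292 and 761 normalized CPM in NrasG12D, against 1249 and 1294 in Cux1-low. All 6 listed erythroid markers were higher in every NrasG12D library, as were 26.5% of all genes. They summed to 3916, 5713 and 2812 in NrasG12D, against 2120 and 2349 in Cux1-low, while Hbb-b1 and Hba-a1 had no listed value. All 6 markers of cycling cells were also higher in every NrasG12D library, summing to 2290, 2687 and 1937 in NrasG12D, against 1665 and 1553 in Cux1-low. Pre-B markers, 7 of 8 listed and all with a positive log2 fold change, summed to 231, 463 and 58.0 in NrasG12D, against 56.0 and 74.5 in Cux1-low. Granulocyte-monocyte markers, 6 of 6 listed, summed to 19570, 13070 and 8154 in NrasG12D, against 7510 and 10610 in Cux1-low. Megakaryocyte markers (6 of 6 listed) summed to 444 to 799 in NrasG12D, against 740 and 754 in Cux1-low. Mast cell and eosinophil markers (6 of 6) summed to 1187 to 1859 in NrasG12D, against 2418 and 2437 in Cux1-low. That last list includes Kit, its most abundant gene in every library. Of its 6 genes 4 had a negative log2 fold change, while Ms4a2 (0.12) and Cpa3 (0.08) were positive. Dendritic markers (4 of 4) summed to 202 to 324 in NrasG12D, against 522 and 790 in Cux1-low, and T and NK cell markers (3 of 5) to 208 to 352 in NrasG12D, against 256 and 284 in Cux1-low. Of the dendritic genes Cd74, H2-Aa and H2-Ab1 had a negative log2 fold change, while Itgax (0.17) was positive. No listed marker was at 0 in every library. The part of this cell makeup in the results below was not tested, and in bulk libraries fewer cells of a type and less RNA per cell cannot be told apart.

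The translation factor genes as a group had higher mRNA levels in NrasG12D. Summed over the 56 genes, the level was 16697, 16803 and 15377 normalized CPM in NrasG12D libraries 1 to 3, against 13678 and 13651 in Cux1-low. All 3 NrasG12D libraries lay above both Cux1-low libraries, and library 3 was the lowest of its group. The means were 16292 ± 794 (SD, n = 3) in NrasG12D and 13664 ± 19.7 (SD, n = 2) in Cux1-low, a ratio of 1.19, with p = 0.2 in a 2-sided exact permutation test, which is the smallest p that 3 against 2 libraries can give. These sums were 1.53 to 1.64% of all normalized CPM in NrasG12D and 1.40 to 1.41% in Cux1-low. Gene by gene, 47 of the 56 had a positive log2 fold change of NrasG12D over Cux1-low (83.9%), against 49.7% of all listed genes. Their median log2 fold change was 0.27, on the scale of log2(normalized CPM + 1), against -0.003 over all listed genes, and the values ran from -0.42 to 0.59.

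No translation factor gene passed the test. Limma, fitted to all 11352 genes adjusted by Benjamini-Hochberg with calls below 0.05, called 0 of 56, where it called 1.13% of all genes (0.255% higher and 0.872% lower in NrasG12D). At an unadjusted limma p under 0.05 there were 26 higher and 1 lower, or 48.2% of the 56 against 31.4% of all genes, and the higher ones alone were 46.4% against 14.8%. In 46 of the 56 genes (82.1%) the NrasG12D and Cux1-low libraries did not overlap, 43 higher and 3 lower, against 53.5% of all genes (26.5% higher, 27.0% lower). Without NrasG12D library 3, 30 of 56 (53.6%) passed, 29 higher and 1 lower, against 37.4% of all genes (18% higher, 19.4% lower). Without NrasG12D library 1, Cux1-low library 1 or Cux1-low library 2, 0 of 56 passed, against 0.0264% of all genes in each case, all of them higher (0.0264%). Without NrasG12D library 2, 0 of 56 passed, against 0.194% of all genes (0.0881% higher, 0.106% lower). In the authors' deposited table, which comes from a different test on all 5 libraries, 12 of 56 (21.4%) were higher and 0 lower at an adjusted p under 0.05, against 16.1% of all genes (6.97% higher, 9.14% lower).

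**Figure D1:**
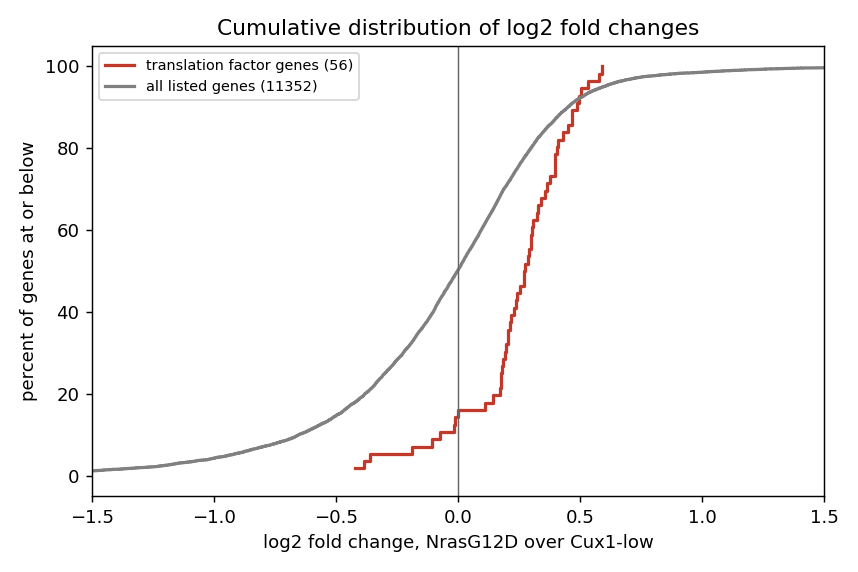
Cumulative percent of genes (vertical axis) at or below each log2 fold change of NrasG12D over Cux1-low (horizontal axis) for the 56 translation factor genes and all 11352 listed genes, the horizontal axis being cut at -1.5 and 1.5. The translation factor curve climbs mainly between 0.1 and 0.6, with a median of 0.27, while the curve of all genes crosses its middle at -0.003 and has far longer tails on both sides.

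In the levels of these genes NrasG12D library 3 lay mostly between its group and Cux1-low. Over the reads of all listed genes it differed less from Cux1-low than from its own group. The chi-square per degree of freedom was 35.0 and 35.3 with Cux1-low libraries 1 and 2. With NrasG12D libraries 1 and 2 it was 49.6 and 63.8. The median difference of the 56 genes from the Cux1-low mean, in log2(normalized CPM + 1), was 0.31, 0.34 and 0.19 in NrasG12D libraries 1 to 3, against -0.01 and 0.01 in the Cux1-low libraries. Of the 56 genes, 32 differed by at least 0.3 in either direction between the Cux1-low mean and the mean of NrasG12D libraries 1 and 2. On a scale of normalized CPM where the first of these means is 0 and the second is 1, library 3 stood at a median of 0.508 for these genes, and 31 of 32 lay between 0 and 1. Libraries 1 and 2 both chose these genes and set the scale, so a position of library 3 below 1 was favoured in advance. The same share over all listed genes was not worked out. The sums of the stem cell, erythroid and cycling markers in library 3 also lay between those of the other NrasG12D libraries and those of Cux1-low. The sum of the mast cell and eosinophil markers did so too, but Kit is its largest part. Of the same list, Gata2 and Cpa3 were higher in library 3 than in either Cux1-low library. Other marker sums did not follow this order: in library 3 the pre-B and granulocyte-monocyte sums lay inside the Cux1-low range, the megakaryocyte and the T and NK cell sums were the highest of the 5 libraries, and the dendritic sum lay between those of the other NrasG12D libraries. Itga2b made up most of the megakaryocyte sum and Nkg7 most of the T and NK cell sum, with 569 and 323 normalized CPM in library 3. Of the other megakaryocyte genes there, Pf4 was also the highest of the 5 libraries and Gp9 lay inside the Cux1-low range. Vwf, Gp1bb and Ppbp were below both Cux1-low libraries. Lck was lowest in library 3, and Klrb1c lay between the other NrasG12D libraries.

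**Figure D2:**
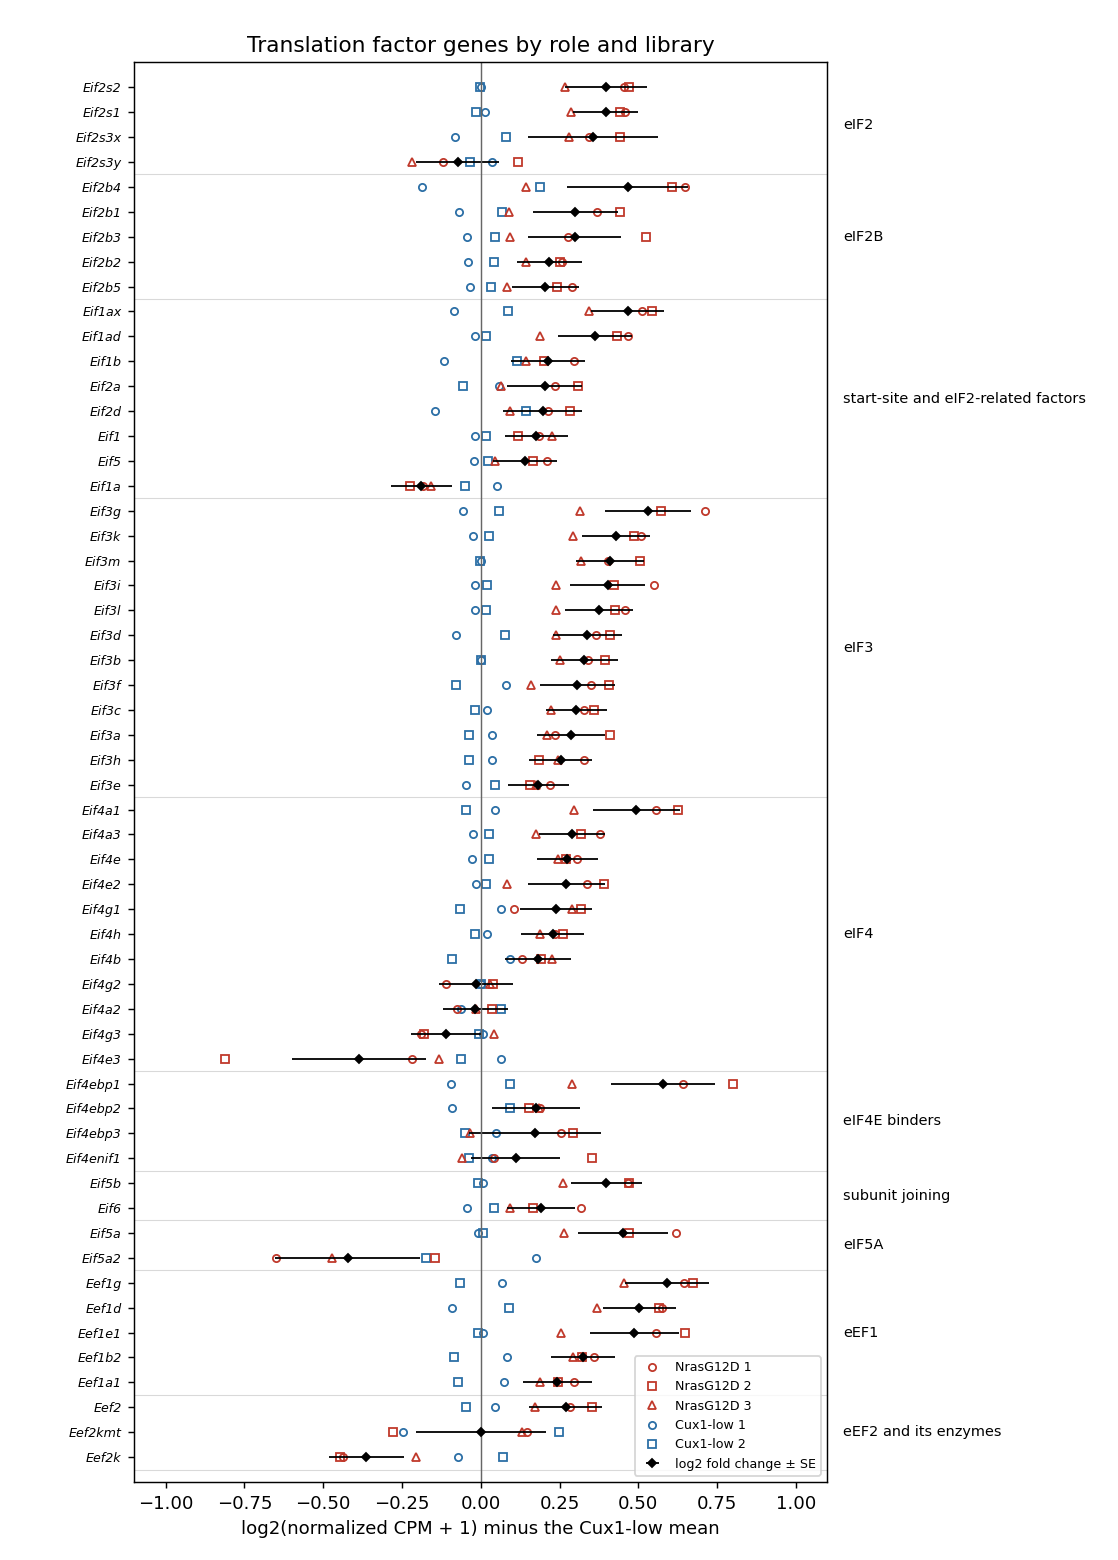
Each row is a translation factor gene, grouped by role, and the horizontal axis gives log2(normalized CPM + 1) minus the mean of the 2 Cux1-low libraries. Open symbols are libraries and black diamonds the limma log2 fold change with its standard error. Most red symbols lie right of the blue ones, with NrasG12D 3 often nearest to them, and Eef2k, Eif1a and Eif4e3 lie wholly to the left.

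The 12 listed subunits of eIF3, the large scaffold that binds the small ribosomal subunit, were higher in every NrasG12D library than in either Cux1-low library, as were 26.5% of all genes. Their log2 fold changes ran from 0.18 (Eif3e) to 0.53 (Eif3g) with a median of 0.33, and 0 of 12 passed over all 5 libraries by limma, 11 having an unadjusted p under 0.05 (91.7%, against 31.4% of all genes). Without NrasG12D library 3, 10 of 12 passed, all higher (83.3%, against 37.4% of all genes, 18% as higher). The authors' deposited table calls 3 higher, Eif3g, Eif3k and Eif3m (25%, against 6.97% of all genes called higher). Eif3g, an RNA-binding subunit that lies on the minus strand at chr9:20894349-20898623 (mm10, as are all gene positions here), had 393, 356 and 298 normalized CPM in NrasG12D, against 230 and 249 in Cux1-low. The log2 fold change of Eif3g came to 0.53 (SE 0.14, adjusted p = 0.079 by limma), and every NrasG12D library was above both Cux1-low libraries. Eif3k, a peripheral subunit, had 255, 251 and 219 in NrasG12D, against 175 and 182 in Cux1-low, a log2 fold change of 0.43 (SE 0.11, adjusted p = 0.0765 by limma). Eif3l, the partner of Eif3k in the complex, had 464, 454 and 399 in NrasG12D, against 334 and 342 in Cux1-low (log2 fold change 0.37, SE 0.11, adjusted p = 0.0892 by limma). In both of these genes the groups were apart and library 3 was the lowest of NrasG12D. Eif3m, a core subunit, had 101.5, 109 and 95.6 in NrasG12D, against 76.6 and 76.4 in Cux1-low, a log2 fold change of 0.41 (SE 0.11, adjusted p = 0.0806 by limma). Its level is uncertain, because 37.1% of its 50-base words also occur in transcripts of other genes, chiefly Gm7658. Eif3b, the most abundant eIF3 gene and a core subunit with an RNA recognition motif, had 943, 979 and 886 in NrasG12D, against 744 and 744 in Cux1-low (log2 fold change 0.33, SE 0.11, adjusted p = 0.101 by limma). The other eIF3 genes had log2 fold changes of 0.40 (Eif3i), 0.34 (Eif3d), 0.31 (Eif3f), 0.30 (Eif3c), 0.29 (Eif3a) and 0.25 (Eif3h). Exons of Eif3d overlap the opposite-strand gene Gm17638 over 43.3% of their bases, and whether reads were counted by strand is not known from the labels. Summed, the eIF3 genes had 4124, 4157 and 3710 normalized CPM in NrasG12D, against 3111 and 3155 in Cux1-low.

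The 5 genes named for eEF1 had a median log2 fold change of 0.49, the highest of any role, and all 5 were higher in every NrasG12D library, as were 26.5% of all genes. Without NrasG12D library 3, 4 of 5 passed as higher, against 18% of all genes. Eef1g, a structural subunit of the eEF1B exchange complex at chr19:8967041-8978479 on the plus strand, had 49.3, 50.3 and 43.1 normalized CPM in NrasG12D, against 32.7 and 29.7 in Cux1-low. This gave a log2 fold change of 0.59 (SE 0.13, adjusted p = 0.0697 by limma), the highest of the 56 genes. Of its 50-base words 64.3% occur in other genes, all 5 of them pseudogenes, so its level is uncertain. Eef1d, an exchange factor subunit of the same complex at chr15:75894205-75909556 on the minus strand, had 209.9, 208.8 and 182 in NrasG12D, against 132 and 149.8 in Cux1-low (log2 fold change 0.50, SE 0.12, adjusted p = 0.0713 by limma). Eef1b2, another exchange subunit, had a log2 fold change of 0.33. Eef1e1, better known as a scaffold protein of the aminoacyl-tRNA synthetase complex, had 102, 108.6 and 82.6 in NrasG12D, against 69.4 and 68.6 in Cux1-low (log2 fold change 0.49, SE 0.14, adjusted p = 0.089 by limma). Eef1a1, the tRNA carrier itself, had 1092, 1054 and 1012 in NrasG12D, against 935 and 845 in Cux1-low. Its log2 fold change of 0.24 (SE 0.11, adjusted p = 0.182 by limma) was the lowest of the 5, and 53.6% of its 50-base words occur in other genes, 18 of 21 of them pseudogenes. Eef1a2, the form known from muscle and neurons, and the Eef1akmt methyltransferase genes were not analysed here.

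Eef2 and the gene of its kinase had opposite signs. Eef2, the translocase, had 1312, 1377 and 1214 normalized CPM in NrasG12D, against 1113 and 1044 in Cux1-low (log2 fold change 0.27, SE 0.12, adjusted p = 0.165 by limma). Eef2k, which encodes the kinase that phosphorylates and inhibits eEF2 and lies at chr7:120842831-120907450 on the plus strand, had 230, 228 and 271 in NrasG12D, against 297 and 328 in Cux1-low. All 3 NrasG12D libraries were below both Cux1-low libraries, with library 3 the closest to them. Its log2 fold change was -0.36 (SE 0.12, adjusted p = 0.103 by limma), and without NrasG12D library 3 it was -0.44 (limma adjusted p = 0.0124). Eef2k was the lower one of the 30 genes that passed without library 3. Eef2kmt, a methyltransferase acting on eEF2, had a log2 fold change of -0.00 with overlapping groups, and exons of Alg1 and Gm15983 on the opposite strand cover part of its exons (23.0% of the bases).

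Among the subunits of eIF2, the 2 autosomal genes were higher and the X- and Y-linked copies of the gamma subunit gene differed. Eif2s1, the alpha subunit that the integrated stress response kinases phosphorylate, at chr12:78861819-78887010 on the plus strand, had 212, 210.2 and 188 normalized CPM in NrasG12D, against 156 and 153 in Cux1-low (log2 fold change 0.40, SE 0.10, adjusted p = 0.0797 by limma). Eif2s2, the beta subunit, had a log2 fold change of 0.40 as well, and both genes passed without NrasG12D library 3 (2 of the 4 subunit genes, against 37.4% of all genes). Eif2s3x had 4.36, 4.74 and 4.13 in NrasG12D, against 2.99 and 3.47 in Cux1-low, where the groups did not overlap (log2 fold change 0.36, SE 0.21, adjusted p = 0.269 by limma). Eif2s3y, its Y-linked copy, had 75.9, 89.6 and 70.8 in NrasG12D, against 84.5 and 80.5 in Cux1-low, with overlap and a log2 fold change of -0.07. The Eif2s3x level is uncertain, since 35.5% of its 50-base words occur in other genes, chiefly Gm2223. The 5 subunits of eIF2B, which recharges eIF2 with GTP, all had positive log2 fold changes of 0.47 (Eif2b4), 0.30 (Eif2b1 and Eif2b3), 0.22 (Eif2b2) and 0.20 (Eif2b5). Groups were apart in 4 of 5, the exception being Eif2b4 (53.5% of all genes were apart), and 3 of 5 passed without NrasG12D library 3, against 37.4% of all genes. Summed, they had 672, 685 and 563 normalized CPM in NrasG12D, against 499 and 548 in Cux1-low.

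The factors of start-site selection and their relatives were mixed, and the 2 genes of eIF1A had opposite signs. Eif1ax, the X-linked gene of eIF1A at chrX:159372178-159389928 on the plus strand, had 138, 141 and 123 normalized CPM in NrasG12D, against 90.9 and 102.5 in Cux1-low (log2 fold change 0.47, SE 0.12, adjusted p = 0.0765 by limma). Eif1a, its autosomal relative, had 168, 164 and 171 in NrasG12D, against 198 and 184 in Cux1-low (log2 fold change -0.19, SE 0.10, adjusted p = 0.221 by limma). In each gene the groups were apart, in opposite directions. The remaining genes of this role had log2 fold changes of 0.36 (Eif1ad, 15.3% of whose exonic bases overlap Banf1 on the opposite strand), 0.21 (Eif1b), 0.20 (Eif2a and Eif2d), 0.18 (Eif1) and 0.14 (Eif5, the GTPase activator of eIF2). Of the 8 genes, 7 had a positive sign, and Eif1ax and Eif1ad passed without NrasG12D library 3 (25%, below the 37.4% of all genes). For subunit joining, Eif5b had 107.9, 108.2 and 93.4 in NrasG12D, against 78.3 and 77.4 in Cux1-low (log2 fold change 0.40, SE 0.11, adjusted p = 0.0873 by limma). Exons of Rev1 on the opposite strand cover 16.9% of its exonic bases. Eif6, which keeps the ribosomal subunits apart, had a log2 fold change of 0.19.

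Of the 11 eIF4 genes 4 had a negative and 7 a positive sign, with a median log2 fold change of 0.23. The 4 negative signs were the largest count in any role. The share was larger in eEF2 and its enzymes (2 of 3) and in eIF5A (1 of 2). Eif4a1, the RNA helicase of the cap-binding complex, had 68.8, 72.1 and 57.2 normalized CPM in NrasG12D, against 47.9 and 44.9 in Cux1-low (log2 fold change 0.49, SE 0.14, adjusted p = 0.0846 by limma). Of its 50-base words 65.3% occur in other genes, all 8 of them pseudogenes, which makes its level uncertain. Eif4h, a cofactor of the helicase, had 770, 783 and 745 in NrasG12D, against 662 and 645 in Cux1-low (log2 fold change 0.23, SE 0.10, adjusted p = 0.168 by limma). Groups were apart in both genes. Eif4g2, an eIF4G relative used in cap-independent initiation, had 1477, 1635 and 1624 in NrasG12D, against 1593 and 1592 in Cux1-low, with a log2 fold change of -0.01 that was 0.033 without NrasG12D library 1. Eif4e3, a cap-binding relative of eIF4E, had 58.6, 38.5 and 62.2 in NrasG12D, against 71.3 and 65.3 in Cux1-low. Its log2 fold change was -0.39 (SE 0.21, adjusted p = 0.251 by limma), and library 2 was well below the other NrasG12D libraries. The others had log2 fold changes of 0.29 (Eif4a3, a helicase of the exon junction complex), 0.27 (Eif4e, the cap-binding protein, and Eif4e2), 0.24 (Eif4g1, the main scaffold), 0.18 (Eif4b) and -0.02 (Eif4a2). Eif4g3, another eIF4G scaffold, had 130.3, 131.2 and 153 in NrasG12D, against 149.4 and 148.1 in Cux1-low, overlapping, with a log2 fold change of -0.11.

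Of the proteins that bind eIF4E and hold it away from eIF4G, Eif4ebp1 had the largest log2 fold change. Eif4ebp1, on the plus strand at chr8:27260329-27276674, had 181, 202 and 142 normalized CPM in NrasG12D, against 108 and 123 in Cux1-low. Its log2 fold change was 0.58 (SE 0.16, adjusted p = 0.0873 by limma), and without NrasG12D library 3 it was 0.72 (limma adjusted p = 0.00491). Library 3 was the lowest of its group and still above both Cux1-low libraries. Eif4ebp2 had 25.6, 24.9 and 25.5 in NrasG12D, against 20.9 and 23.9 in Cux1-low, a log2 fold change of 0.18 with the groups apart. Eif4ebp3 had 5.64, 5.82 and 4.44 in NrasG12D, against 4.76 and 4.38 in Cux1-low, with overlap, a log2 fold change of 0.17 and an uncertain level, since an exon of another gene on the same strand covers most of it (67.3% of its exonic bases). Eif4enif1, which carries eIF4E into the nucleus, had a log2 fold change of 0.11 with overlap. Eif5a, the hypusine-bearing factor that helps the ribosome past proline-rich stretches, was the most abundant of the 56 genes and lies at chr11:69916714-69921958 on the minus strand. It had 2307, 2079 and 1803 in NrasG12D, against 1492 and 1510 in Cux1-low (log2 fold change 0.45, SE 0.14, adjusted p = 0.0994 by limma). Eif5a2, its rarer relative, had 5.74, 8.56 and 6.62 in NrasG12D, against 10.9 and 8.38 in Cux1-low, overlapping, with a log2 fold change of -0.42 (SE 0.23, adjusted p = 0.244 by limma). Per kilobase of exon, the highest mean levels were 868 in NrasG12D and 632 in Cux1-low for Eif5a, and 422 in NrasG12D and 357 in Cux1-low for Eef1a1. The lowest were 1.16 in NrasG12D and 0.847 in Cux1-low for Eif2s3x.

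**Figure D3:**
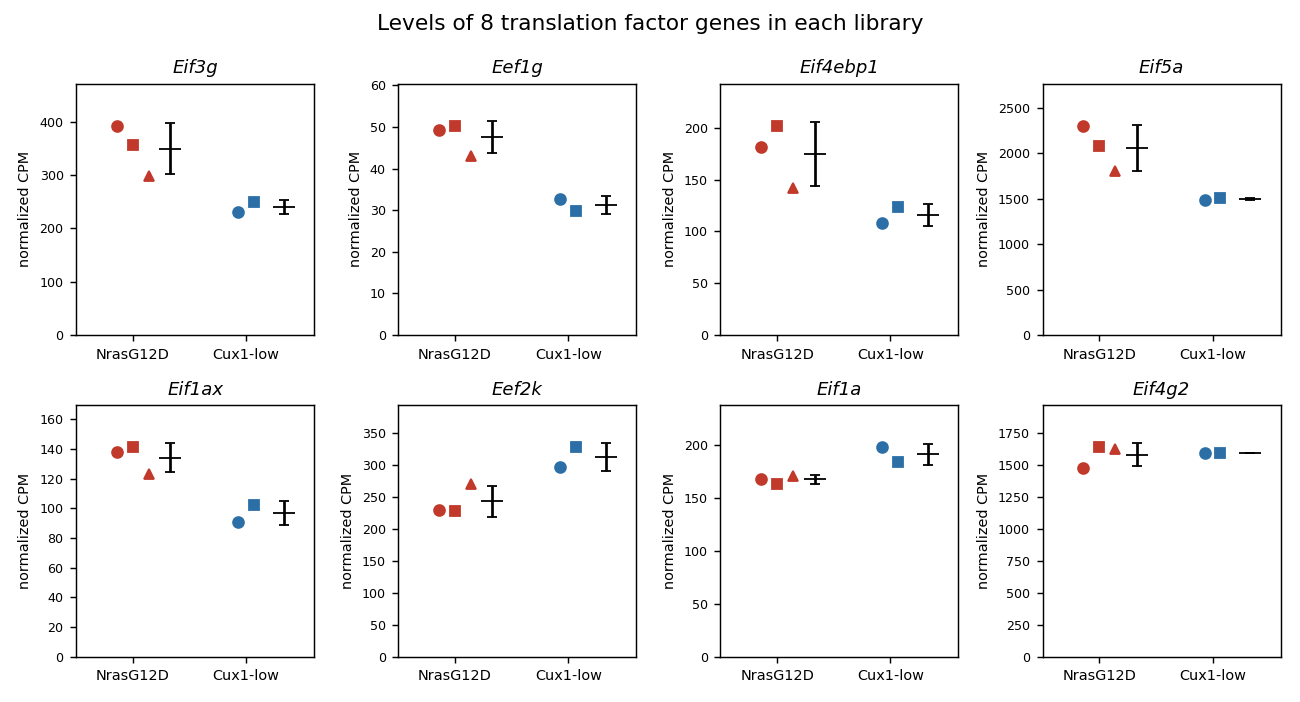
Normalized CPM (vertical axes, from 0) in the 3 NrasG12D and 2 Cux1-low libraries for 8 genes, circles, squares and triangles being replicates 1, 2 and 3, and the bars the group mean with its SD. The first 5 genes lie higher in every NrasG12D library, Eef2k and Eif1a lie lower in every one, and Eif4g2 overlaps.

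**Figure D4:**
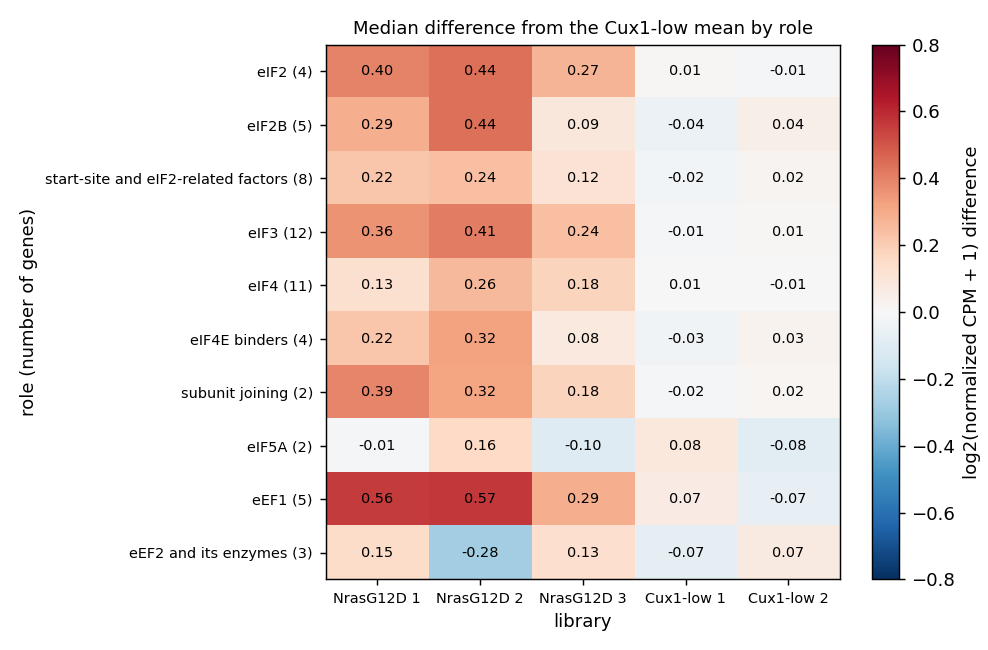
Median over the genes of each role (rows, with the number of genes) of log2(normalized CPM + 1) minus the Cux1-low mean in each library (columns), shown as colour and number. The eEF1 row is the reddest in NrasG12D libraries 1 and 2, at 0.56 and 0.57, and all rows but eIF5A and eEF2 are above 0 in every NrasG12D library.

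Related genes were also compared with each other inside each library, as log2 ratios of normalized CPM with nothing added, for 7 pairs. The ratio of Eif5a to Eif5a2 was 0.93 higher in NrasG12D, and that of Eif1a to Eif1ax was lower, with a difference of -0.66. The ratio of Eif2s3x to Eif2s3y was 0.53 higher in NrasG12D, that of Eif4a1 to Eif4a2 0.52 higher, that of Eif4ebp1 to Eif4ebp2 0.40 higher and that of Eif4g1 to Eif4g3 0.35 higher. In these 6 pairs the 3 NrasG12D ratios lay wholly to the same side of the 2 Cux1-low ratios. How often this occurs among other gene pairs was not worked out, and 53.5% of all single genes had groups apart. The levels of Eif4a1 and Eif2s3x are uncertain, as said above, and exons of other genes cover 13.3% of the exonic bases of Eif4a2. Each gave p = 0.2 in a 2-sided exact permutation test, the smallest possible, and 0.233 after Benjamini-Hochberg adjustment over the 7 pairs, so none passed. The ratio of Eif4e to Eif4e2 differed by 0.004 with overlapping groups (exact p = 1). In the Eif4ebp pair, NrasG12D library 3 had a log2 ratio of 2.47, against 2.37 in both Cux1-low libraries.

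**Figure D5:**
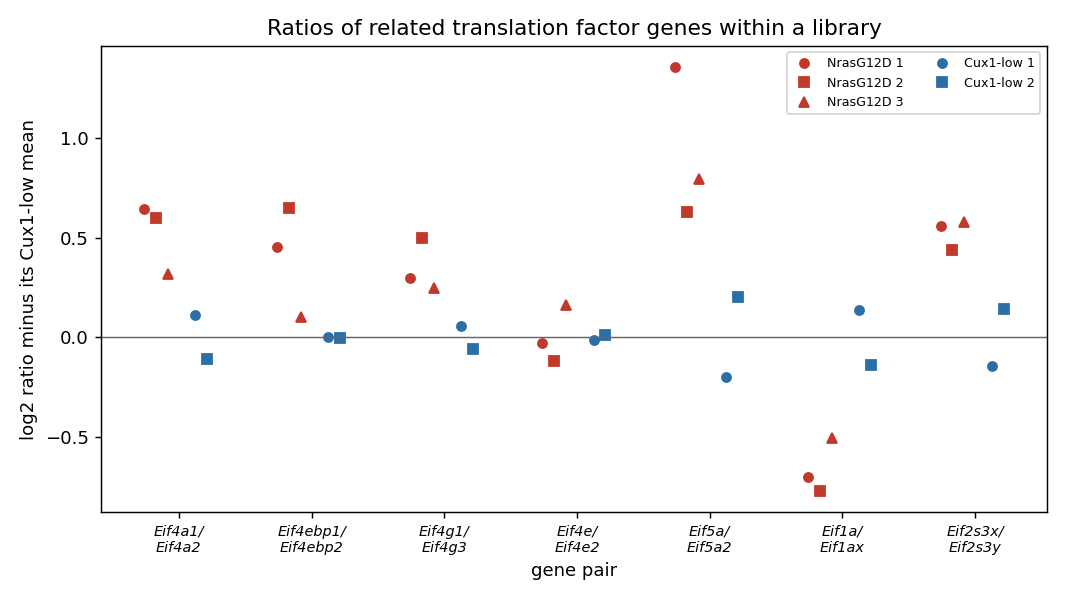
For 7 pairs of related genes (horizontal axis), the log2 ratio of the first gene to the second in each library minus its Cux1-low mean (vertical axis). NrasG12D symbols stand left of the Cux1-low symbols within a pair, and they are apart from them in 6 pairs, with Eif4e/Eif4e2 overlapping and Eif1a/Eif1ax the pair that lies below 0.

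The shift was also seen among genes that share little sequence with others. Among the 31 genes with under 5% of their 50-base words in other genes, 25 had a positive and 6 a negative log2 fold change, with a median of 0.23, and 80.6% had groups that did not overlap, against 53.5% of all genes. Without NrasG12D library 3, 15 of these 31 passed, 14 higher and 1 lower (48.4%, against 37.4% of all genes). Another 8 genes shared over 25%, Eef1g, Eif4a1, Eif3m, Eif3h, Eef1a1, Eif2s3x, Eif4ebp3 and Eef2kmt, and their levels are uncertain.

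Lists of other genes of translation control gave smaller medians than the 0.27 of the translation factor genes. The share with a positive sign was not smaller in all of them. It was 85.7% in the hypusine and termination list and 83.3% in the mitochondrial list. Of the translation factor genes it was 83.9%, and of all genes 49.7%. The remaining lists had 58.8 to 68.4%. Of 19 listed genes of the eIF2 kinases and the integrated stress response, 13 had a positive and 6 a negative log2 fold change, with a median of 0.11, and 0 passed over all 5 libraries by limma, with 4 higher and 3 lower at an unadjusted p under 0.05. Without NrasG12D library 3, 3 passed as higher and 4 as lower, or 36.8% of the 19, near the 37.4% of all genes. The share with an unadjusted p under 0.05 was also 36.8%, against 31.4% of all genes, and the authors' deposited table calls 2 higher and 3 lower (26.3%, against 16.1%). Trib3, a pseudokinase gene induced in that response, had 2.97, 2.68 and 4.37 normalized CPM in NrasG12D, against 9.71 and 9.96 in Cux1-low (log2 fold change -1.34, SE 0.23, adjusted p = 0.0508 by limma). Nupr1, a stress-induced chromatin protein gene, had 3.44, 2.0 and 3.65 in NrasG12D, against 9.80 and 9.72 in Cux1-low (log2 fold change -1.45, SE 0.25, adjusted p = 0.0511 by limma). Both were lower in every NrasG12D library and were named for having the 2 smallest p of the list. In the whole list the groups were apart in 52.6% of the 19 genes, against 53.5% of all genes. Atf4 and Asns, the central transcription factor of the response and an amino acid synthesis gene it drives, had log2 fold changes of 0.40 and 0.90 and were named after their values were seen.

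Of 18 genes of mTORC1 and of kinases acting on translation factors, 11 had a positive and 7 a negative log2 fold change, with a median of 0.05. By limma over all 5 libraries 0 passed, 2 were higher and 1 lower at an unadjusted p under 0.05, and 2 passed as higher without NrasG12D library 3. These shares, 16.7% and 11.1%, were below the 31.4% and 37.4% of all genes, and the authors' deposited table calls 1 gene, as higher (5.56%, against 16.1%). Pdcd4, an inhibitor of eIF4A, had 112, 143 and 115 normalized CPM in NrasG12D, against 90.6 and 79.9 in Cux1-low (log2 fold change 0.52, limma adjusted p = 0.0817). Rps6ka3, which encodes a kinase downstream of ERK, had 24.5, 23.2 and 24.3 in NrasG12D, against 35.7 and 29.8 in Cux1-low (log2 fold change -0.43, limma adjusted p = 0.111). The groups were apart in both genes, which were named for having the 2 smallest p of the list. In the whole list they were apart in 27.8% of the 18 genes, against 53.5% of all genes. Mtor itself had a log2 fold change of -0.09, a value chosen after it was seen.

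Of 17 listed genes of poly(A) binding, scanning and re-initiation, 10 had a positive and 7 a negative log2 fold change, with a median of 0.09. By limma 0 passed, 4 were higher and 2 lower at an unadjusted p under 0.05, and 5 higher and 2 lower passed without NrasG12D library 3. These shares, 35.3% and 41.2%, were near the 31.4% and 37.4% of all genes, and the authors' deposited table calls 3 higher (17.6%, against 16.1%). Ybx1, an abundant mRNA-binding protein, had 436, 414 and 343 normalized CPM in NrasG12D, against 239 and 260 in Cux1-low (log2 fold change 0.67, limma adjusted p = 0.058). Pabpc1, the main cytoplasmic poly(A)-binding protein, had 342, 351 and 322 in NrasG12D, against 258 and 251 in Cux1-low (log2 fold change 0.41, limma adjusted p = 0.0726). Both were higher in every NrasG12D library and were named for having the 2 smallest p of the list. In the whole list the groups were apart in 64.7% of the 17 genes, against 53.5% of all genes. Of 21 listed genes of hypusine and diphthamide synthesis, selenocysteine insertion, termination and ribosome rescue, 18 had a positive and 3 a negative log2 fold change, with a median of 0.17. By limma 0 passed, 6 were higher and 1 lower at an unadjusted p under 0.05, and 4 higher and 1 lower passed without library 3. These shares were 33.3% and 23.8%, against 31.4% and 37.4% of all genes, and the authors' deposited table calls 2 higher and 1 lower (14.3%, against 16.1%). Dhps, the first enzyme of the hypusine modification that eIF5A carries, had 52.5, 53.4 and 41.8 in NrasG12D, against 26.8 and 32.4 in Cux1-low (log2 fold change 0.71, limma adjusted p = 0.0705). Gspt2, a release factor gene of the eRF3 type, had 8.87, 6.73 and 11.5 in NrasG12D, against 19.1 and 17.2 in Cux1-low (log2 fold change -0.96, limma adjusted p = 0.0757). Dhps was higher and Gspt2 lower in every NrasG12D library, and they too were named for the 2 smallest p. In the whole list the groups were apart in 61.9% of the 21 genes, against 53.5% of all genes. Of 12 mitochondrial translation factor genes, 10 had a positive and 2 a negative log2 fold change, with a median of 0.11. By limma 0 passed, 2 were higher at an unadjusted p under 0.05 and 2 passed as higher without library 3. Both shares were 16.7%, below the 31.4% and 37.4% of all genes, and the authors' deposited table calls 0, against 16.1% of all genes. Tsfm and Gfm1, mitochondrial elongation factors, had the smallest p of these, with log2 fold changes of 0.51 and 0.33 (limma adjusted p = 0.127 and 0.139). Tsfm had 112, 105.3 and 74.8 in NrasG12D, against 61.8 and 72.4 in Cux1-low, and Gfm1 had 129.9, 138.9 and 108.9 in NrasG12D, against 99.8 and 98.9 in Cux1-low.

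Promoters were searched for the E-box CACGTG, a palindrome bound by MYC and related factors, because many of these genes shifted together. A window of 250 bases before to 50 bases after the start (RefSeq, GRCm38.p6) was found for 44 of the 56 genes. The E-box was present in 12 of 44 (27.3%), against 8.09% of 27025 genes with a window and 12% of the 8724 of them that the table lists. The 12 genes with it had a median log2 fold change of 0.27, 10 of 12 being positive, and the 32 without it had 0.30, 28 of 32 being positive. The letters TATAAA, on either strand, were in 11.4% of the 44, against 15.7% of all genes with a window and 7.99% of those the table lists. A pyrimidine run like that of the TOP mRNAs at the start base was in 4.55% of the 44, against 3.01% both of all genes with a window and of those listed. The run had to begin with a C exactly at an annotated start base, so a run beginning a few bases away was not counted. Which of these genes make TOP mRNAs therefore cannot be read from this share. Windows around 7 of these E-boxes follow, 5′ to 3′ on the strand of the gene, with the E-box in capitals. They are shown because they span higher genes of several roles and the lower gene Eef2k, which carries the same letters.
Eif3k, 44 bases before the start, chr7:28981915-28981944, minus strand: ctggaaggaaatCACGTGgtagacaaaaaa
Eif4a1, 189 bases before the start, chr11:69672595-69672624, minus strand: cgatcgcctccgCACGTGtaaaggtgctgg
Eif5a, 74 bases before the start of the nearest window, chr11:69921443-69921472, minus strand: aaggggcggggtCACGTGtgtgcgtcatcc
Eif4e, 64 bases before the start, chr3:138527192-138527221, plus strand: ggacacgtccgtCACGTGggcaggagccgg
Eif4g1, 54 bases before the start, chr16:20672661-20672690, plus strand: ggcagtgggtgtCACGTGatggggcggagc
Eef2, 43 bases before the start, chr10:81176576-81176605, plus strand: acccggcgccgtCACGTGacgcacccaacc
Eef2k, 31 bases before the start, chr7:120842788-120842817, plus strand: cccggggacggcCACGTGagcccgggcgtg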

How the data were processed

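PolyA RNA, isolated with Trizol, was sequenced from TruSeq v2 libraries, and TopHat, HTSeq and edgeR stand in the submitters' processing notes, without version, beside the builds mm10 and hg19. The deposited table, per the file headers, gives CPM per library with the authors' log2 fold change, log2 CPM, likelihood ratio score, p-value and adjusted p-value. These CPM columns are a normalized signal, as deposited: their sums run from 971746 to 1026780. All 11352 genes listed were above 1 in at least 3 of the 5 libraries, so a gene above 1 in the 2 Cux1-low libraries alone is not listed. The value of 1 read was recovered from the steps between low values, all values under 100 being whole within 0.05 read, which gave the depths. No count model was fitted. Limma 3.58.1 (R 4.3.3) with trend was fitted to log2(normalized CPM + 1) over all genes, 3 against 2 libraries, 2-sided. A minimum of 1 in at least 2 libraries removed 0 genes. In simulated data for this comparison, run on 11352 genes, it found 93% of changes of 0.5 log2 and 100% of changes of 1 log2, with 11 false calls. The simulation gave every gene the same spread beyond counting noise and held no outlying library. These shares therefore do not tell how many real changes were found or missed here. Sequence sharing and exon overlap come from GENCODE M21 (mm10). Every library pair differed beyond counting noise. The rule for values in every library was the 12 smallest p, the 5 largest changes in each direction, the 6 highest and 3 lowest means, all Eif4ebp genes and both Eif2s3 genes. Members, lists and markers were chosen with earlier results of these data known. Alternatives changed the pseudocount, filter, trend, scaling, replicate block and libraries. The labels' protocols do not say which libraries share a mouse or a batch, and 8 genes that meet the naming rule (Eef1a2, Eef1akmt1 to Eef1akmt4, Eif3j1, Eif3j2, Eif4e1b) were not analysed here.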

Additional observations from a re-analysis of the deposited data

How the results depend on the processing

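The count of translation factor genes past the threshold was 0 with all 5 libraries under the other pseudocounts, filters, trend settings and scalings, and ran from 0 to 30 when a library was left out, 30 coming without NrasG12D library 3 and 0 without any of the other 4. Of all genes, 128 passed, 213 under plain CPM, and 3 to 4243 with a library left out: 3 without NrasG12D 1, Cux1-low 1 or Cux1-low 2, 22 without NrasG12D 2 and 4243 without NrasG12D 3. The median log2 fold change stayed positive, from 0.209 (plain CPM) to 0.320. Groups were apart in 41 of the genes under plain CPM and in up to 51 with a library left out. Leaving out a library cannot lower this count, and the share of all genes apart was not worked out for these settings. Under plain CPM the share of all genes with a positive sign was 43.4%, against 49.7%. The stress response list had 2 genes past the threshold under limma without trend, under plain CPM and under median scaling, and 0 to 7 with a library left out. The mTORC1 list had 0 to 2 with a library left out, the poly(A) list 0 to 7, the hypusine list 0 to 5 and the mitochondrial list 0 to 2. With a replicate block, which leaves NrasG12D 3 without weight in the contrast because its number occurs in a single group, 27 translation factor genes and 4163 of all genes passed, and 10, 2, 6, 5 and 2 in the lists in that order. Same-numbered libraries did not deviate together (r = -0.19 and -0.004 across genes). The deviations of the 2 Cux1-low libraries mirror each other, so this check cannot decide whether the numbers mark pairs. Of 377 values of the 27 genes given in every library, 344 kept their sign and side of the threshold, and 32 newly passed, 16 of them without NrasG12D 3. None of the 27 had passed with all 5 libraries, so keeping the side means still not passing and is no measure of stability. Eif4g2 turned from -0.014 to 0.033 without NrasG12D 1, its values with a library left out running from -0.04 to 0.033. The Eif4e/Eif4e2 ratio ran from -0.076 to 0.066 with a library left out, -0.076 without NrasG12D 3 and -0.008 without Cux1-low 1. Sign changes also occurred in Eif4a2, Eif4enif1 and Eef2kmt. The cause of these changes was not tested. With 3 against 2 libraries a permutation test cannot go below 0.2.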
